A study of Mus musculus with 419 samples.

Results

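Within a population of 419 mouse embryonic stem cells read cell by cell, the cells with most Nanog RNA were set against those with least. For each cell, Nanog was summed over its 3 annotated transcript rows in both allele tables and divided by the cell's total over both tables, in parts per 1000000 (ppm). The top 25% of cells, 105 cells called Nanog-high here, were compared with the bottom 25%, 105 cells called Nanog-low, and 209 cells lay between them. All cells belong to the female hybrid line F1-21.6 (129Sv-Cast/EiJ), an F1 cross that by descent has a 129 and a CAST copy of each autosome. The cells differ in their 129 share of distal chromosome 12, as described below. Both groups share the line, the growth on Laminin-511 without feeder cells, the medium with 15% fetal bovine serum and leukemia inhibitory factor (LIF), and the G1 phase, so they differ by the measured Nanog level and by no treatment or genotype that the labels name. RamDA-seq, the method used, covers total RNA along its full length and adds no molecular identifiers. Since no separate cultures are named and a single line was grown, the 419 cells count as 1 sample: no p-value is given, and the spread shown is between cells or between the 5 sequencing lanes named in the sample descriptions, which may be technical.

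NANOG is a homeodomain transcription factor of the pluripotency network of the early embryo, and in mouse embryonic stem cells it works together with OCT4 (Pou5f1), SOX2 and ESRRB to hold the self-renewing state. In cultures with serum and LIF its level is known to vary between cells, and cells low in Nanog are known to be more prone to differentiate while they can still return to a high level. The naive state resembles the preimplantation epiblast and is marked by factors such as ESRRB, KLF4, TBX3 and TFCP2L1, whereas formative and primed states resemble the epiblast after implantation.

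The promoter of Nanog, the gene that defined the groups, and that of Zfp42 (Rex1), a classical naive marker that was among the genes higher in Nanog-high cells, are shown because both hold a motif of the OCT4 family. Each is the stretch of 250 bases before the start site in RefSeq (GRCm38.p6, printed on the gene's own strand), and the capitals mark the motif. The Nanog stretch is chr6:122707239-122707488 (plus strand) and holds the OCT4-SOX2 composite motif, the half-site TTTGCAT followed after any 1 base by the half-site ACAATG, which ends 61 bases before the start site. The Zfp42 stretch is chr8:43307010-43307259 (minus strand) and holds the octamer ATGCAAAT on the opposite strand.
Nanog: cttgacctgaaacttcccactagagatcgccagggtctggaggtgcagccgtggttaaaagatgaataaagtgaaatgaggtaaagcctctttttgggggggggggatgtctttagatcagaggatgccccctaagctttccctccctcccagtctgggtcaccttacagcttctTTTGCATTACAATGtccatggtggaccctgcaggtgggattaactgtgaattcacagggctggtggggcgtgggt
Zfp42: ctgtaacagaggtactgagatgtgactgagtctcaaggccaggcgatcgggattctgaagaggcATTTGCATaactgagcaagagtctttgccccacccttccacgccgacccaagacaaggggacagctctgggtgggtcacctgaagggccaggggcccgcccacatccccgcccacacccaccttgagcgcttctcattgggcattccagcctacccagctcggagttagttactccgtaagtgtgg
Searched on both strands of the 250 bases before 32851 start sites, the composite was found in 2 (0.00609%), both of them start sites of Nanog, and the octamer in 526 (1.60%). Only these exact letters were searched, with no mismatch allowed, and so long a string is rare by its length alone. Variant sites were not counted, so these shares do not show that other promoters lack sites for OCT4 and SOX2. The composite's half-site TTTGCAT is part of the octamer read on its opposite strand (ATTTGCAT), but the Nanog stretch has no full octamer. Of the naive list described below together with Nanog, 13 genes had an entry, and Nanog and Zfp42 were the ones with an exact match. None of the 10 matched genes among the 15 highest, nor of the 9 among the 15 lowest, held either motif in this window.

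Nanog itself (ENSMUSG00000012396, chromosome 6, 122707489 to 122714633, plus strand, mm10) is described without a test, since it chose the cells. It ranged from 407 to 1127 ppm in Nanog-high cells with a median of 531, and from 0 to 97.2 in Nanog-low cells with a median of 22.7. The mean was 574 ± 154 in Nanog-high cells and 31.7 ± 31.1 in Nanog-low cells (SD over 105 cells each). The cells just outside the limits lay at 406 below the Nanog-high group and at 98.7 above the Nanog-low group, so neither limit falls in a gap of the distribution. The distribution of Nanog over cells had its highest bar near 0 and a long upper tail.

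**Figure D1:**
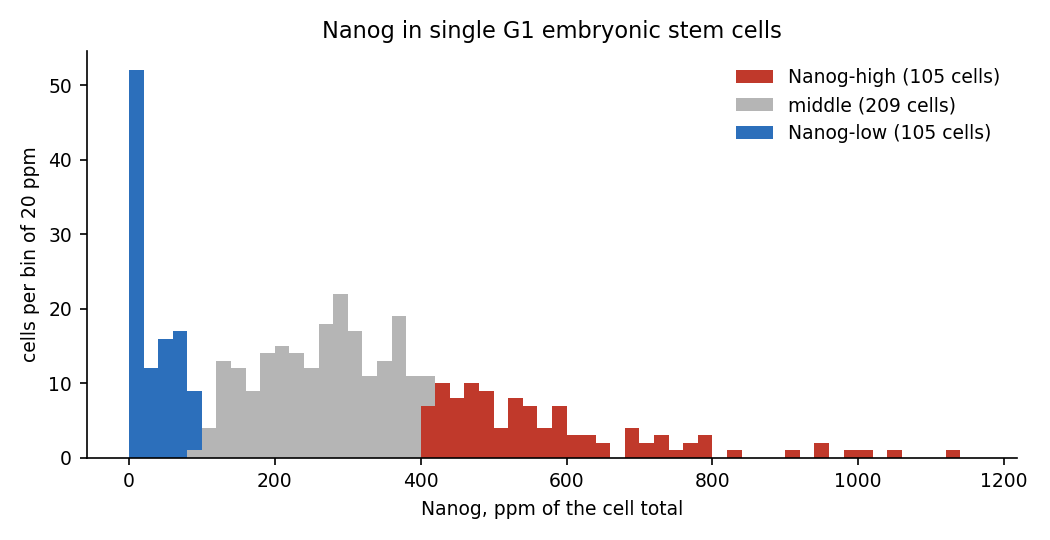
Number of cells (vertical axis) by Nanog level in ppm of the cell's total (horizontal axis, bins of 20), stacked by group: Nanog-high (red, 105 cells), middle (grey, 209 cells) and Nanog-low (blue, 105 cells). Nanog-high cells run from 407 to 1127 ppm and Nanog-low cells from 0 to 97.2.

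Both allele tables entered the sum that chose the cells, so their values are a description as well. Nanog from the 129 allele averaged 292 ppm in Nanog-high cells and 15.2 ppm in Nanog-low cells. Nanog from the CAST allele averaged 283 ppm in Nanog-high cells and 16.5 ppm in Nanog-low cells. Nanog came from 1 allele table alone in 0 of 105 Nanog-high cells and 37 of 105 Nanog-low cells, a contrast that the choice by level largely fixes. Nanog was at 0 in both tables in 10 cells, all of them Nanog-low. Among Nanog-low cells the 129 table was at 0 in 44 and the CAST table in 13, so most of the 37 had CAST values alone. Some of these held about 1 ppm of Nanog, where missed transcripts cannot be told apart from expression of a single allele. Over the 419 cells the 129 and CAST values of Nanog had a Spearman correlation of 0.789, given as a description of values that share a cell and its scaling. When cells were chosen by the 129 allele alone, CAST Nanog, which then had no part in the choice, averaged 251 ppm in the upper 25% of cells and 29.7 ppm in the lower 25%. The row of transcript Nanog-203 held 59.7% of all Nanog values, Nanog-201 held 25.0% and Nanog-202 15.3%.

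The groups differed little in their totals, but the authors had scaled the values to nearly common totals. Similar totals therefore say nothing about depth in reads or RNA content. Cell totals averaged 914582 in Nanog-high and 938993 in Nanog-low cells, and transcript rows above 0 averaged 29182 in Nanog-high and 29271 in Nanog-low cells. Ribosomal RNA genes took 15.3% of the total in Nanog-high and 14.4% in Nanog-low cells, and mitochondrial rows 4.65% in Nanog-high and 4.41% in Nanog-low cells. Each lane gave 15 to 26 Nanog-high and 19 to 23 Nanog-low cells. In 37 of the 419 cells the epithelial keratins Krt8 and Krt18 summed to over 300 ppm, a limit set after seeing the data, with 6 cells between 200 and 400. None of these was Nanog-high (0 of 105, up to 2.86%), 34 were Nanog-low (32.4%, exact interval 23.6% to 42.2%) and 3 lay between, with 6 to 9 of them in each lane. Median Pou5f1 in the 37 was 48.3 ppm, against 262 in the other 71 Nanog-low cells, so a defining marker of embryonic stem cells was low in many of them. These cells are called keratin-rich below. For each called gene named below whose log2 ratio came under the limit for a call without them, and for each list median below that then moved by over 1.5 times, both values are given, the second after "or" and before "without". Another Nanog-low cell had a sum of 14507 ppm over genes of the 2-cell-embryo list, with the next cell at 3401. Its total was the highest of the series, at 1477656, and its row count of 21872 the lowest among Nanog-low cells.

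Away from Nanog, the groups differed in many genes. A gene was the sum of its transcript rows in both tables, and 8781 genes passed a filter of at least 10 ppm on average and a value above 0 in at least 20% of cells. A gene was called higher when log2 of the ratio of group means, Nanog-high over Nanog-low with 1 ppm added to each mean, was at least 0.5 and positive in each of the 5 lanes, and called lower in the same way below -0.5. By that rule 556 genes (6.33%) were higher in Nanog-high cells and 1020 (11.6%) were lower. The median log2 ratio over all 8781 was 0.014, with quartiles of -0.24 and 0.22. Ratios of at least 1 were seen in 119 of the higher genes, and ratios of at most -1 in 386 of the lower genes. Of the autosomal calls, 508 of 515 higher and 979 of 980 lower genes had the same sign in both allele tables. The lower side leaned more on few cells, since 93 of the 1020 genes had over 20% of the summed value of both groups in 4 cells, against 2 of the 556. Without the keratin-rich cells 347 genes were higher and 513 lower. With mean log2 values compared in place of log2 of means, 1018 were higher and 778 lower, so that higher genes made up 56.7% of calls in place of 35.3%.

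Transcription factors of the naive state were higher in Nanog-high cells. The list of naive genes has 23 members besides Nanog, 22 passed the filter, 17 of these were called higher and 0 lower, and their median log2 ratio was 1.46, against 0.014 over all genes and 6.33% of genes called higher. The lane medians ran from 1.14 to 1.62, and without the keratin-rich cells the median was 1.07. Esrrb, an orphan nuclear receptor that partners with NANOG, had 93.99, 811 and 1411 ppm (lowest, median and highest) in Nanog-high cells, against 0, 147 and 863 in Nanog-low cells. Its log2 ratio was 1.75, with 1.43, 1.77, 1.84, 1.71 and 1.97 in lanes 2 to 6, and only 1 Nanog-low cell reached the Nanog-high median. Esrrb lies on chromosome 12 (86361117 to 86521628), in a region where the cells of the series differ in their 129 share. A share under 35% beyond 80 Mb of that chromosome was seen in 79 of 105 Nanog-high cells (75.2%) and 64 of 105 Nanog-low cells (60.95%). The Esrrb ratio was 2.13 for the 129 allele and 1.64 for the CAST allele, and the part of that region in it was not tested.

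Tfcp2l1, a factor downstream of LIF, had 160.5, 729 and 2420.4 in Nanog-high cells, against 0, 166 and 695 ppm in Nanog-low cells. No Nanog-low cell reached the Nanog-high median, and the log2 ratio was 1.90 (1.67 to 2.17), where the values in parentheses, here and below, are the lowest and highest of the 5 lanes. Klf4, another LIF target and one of the reprogramming factors, had 23.6, 120.3 and 472 in Nanog-high cells, against 0, 21.0 and 189 in Nanog-low cells, a log2 ratio of 1.83 (1.48 to 2.43). Tbx3, a T-box factor of the naive network, showed a wide gap in the median cell: 4.18, 197 and 401 in Nanog-high cells, against 0, 8.94 and 262 ppm in Nanog-low cells, a log2 ratio of 2.60 (2.29 to 3.09). Its low values were spread over the Nanog-low cells as a whole, since its median was 8.94 in the keratin-rich cells and 10.9 in the other Nanog-low cells. Esrrb differed in this, with medians of 7.84 ppm in the keratin-rich cells and 330 in the other Nanog-low cells. Zfp42 had 5.86, 368 and 669.9 in Nanog-high cells, against 2.10, 71.0 and 874 in Nanog-low cells, a log2 ratio of 1.70 (1.53 to 1.83). Across these genes the ranges of both groups overlapped, but at most 7 of 105 Nanog-low cells lay at or above the Nanog-high median.

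**Figure D2:**
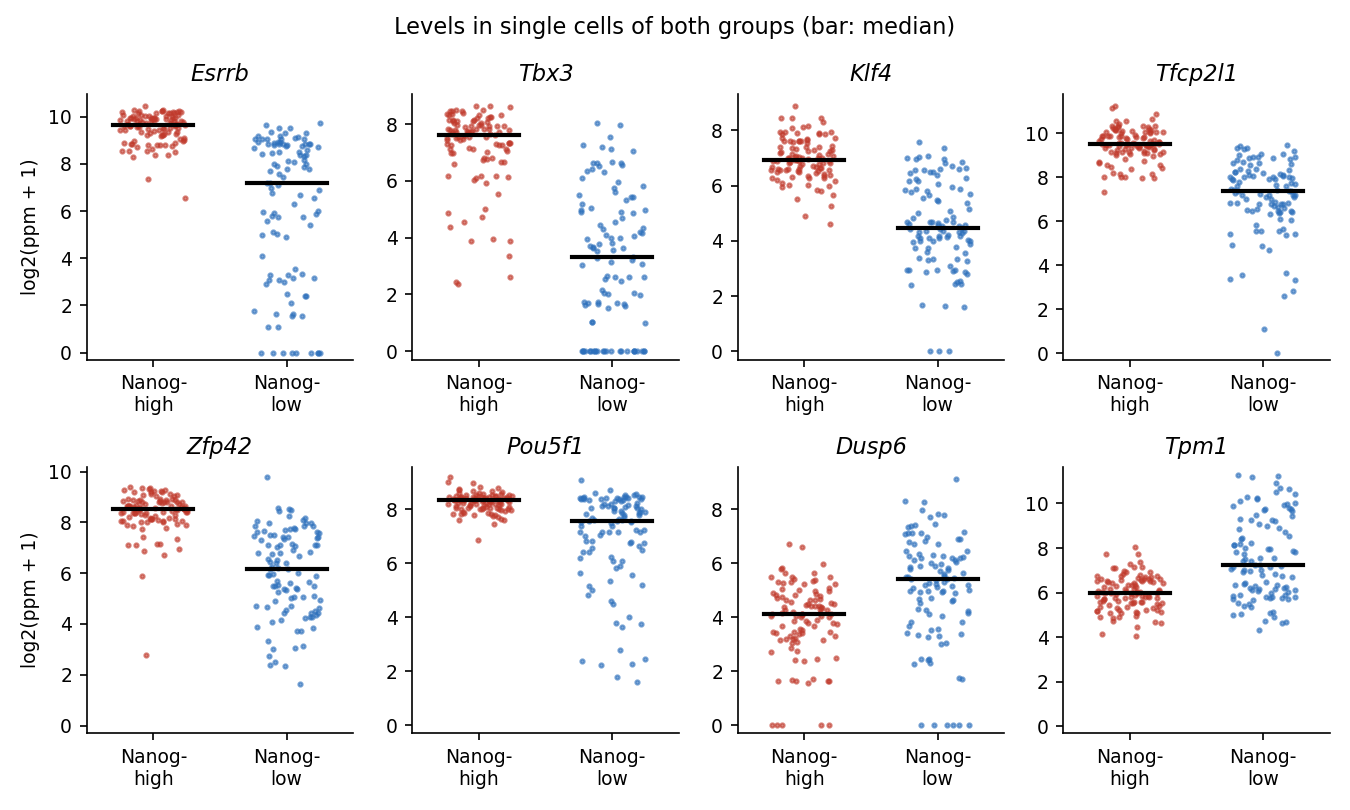
Level of 8 genes in every cell of the Nanog-high group (red, left) and the Nanog-low group (blue, right), as log2 of the value in ppm plus 1 (vertical axis); black bars are medians. On this log scale Nanog-low cells spread more widely for Esrrb, which runs from 93.99 to 1411 ppm in Nanog-high cells and from 0 to 863 ppm in Nanog-low cells, while Dusp6 and Tpm1 have higher medians in Nanog-low cells.

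The levels followed Nanog in steps rather than only at the ends. Over 4 bins of 25% of cells each, from low to high Nanog, mean Tfcp2l1 was 216, 475, 609 and 806 ppm and mean Tbx3 30.4, 85.2, 132 and 189. Mean Esrrb was 235, 599, 696 and 794, so most of its difference lay between the lowest bin and the next. Among the 22 naive genes 16 had means that increased over all 4 bins, against 16.6% of all genes. Other naive genes called higher were Prdm14, a repressor of differentiation and DNA methylation genes, at 2.65 (2.06 to 3.83), Tcl1, a coactivator of AKT kinase, at 2.56 (1.75 to 2.96), and Nr5a2, a nuclear receptor that can drive Pou5f1, at 2.07 (1.57 to 2.502). These 3 had low values: the median cell had 17.9 ppm in Nanog-high and 0 in Nanog-low cells for Prdm14, 21.8 ppm in Nanog-high and 0 in Nanog-low cells for Tcl1 and 38.5 ppm in Nanog-high and 2.33 in Nanog-low cells for Nr5a2. The junction gene Jam2 (1.81), Mreg (1.59), the DNA demethylase Tet2 (1.57), the X-linked nuclear receptor Nr0b1 (1.35), Klf2 (1.23), the lysosomal enzyme Manba (0.90), Dppa5a (0.70, or 0.41 without), the growth factor Gdf3 (0.68, or 0.31 without) and Klf5 (0.61) were called higher too. The other 5 members that passed the filter were not called: Fbxo15 at 0.63 (-0.58 to 1.73), Dppa2 at 0.48 (-0.21 to 0.998), Dppa4 at 0.18 (0.09 to 0.31), Pecam1 at 0.07 (-0.53 to 0.86) and Dppa3 at -0.15 (-0.99 to 0.84). Sox15 did not pass it, with means of 6.92 ppm in Nanog-high and 4.21 in Nanog-low cells.

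General pluripotency factors had smaller ratios than the naive ones. All 12 genes of the core list passed the filter, 8 were called higher, against 6.33% of all genes, and 0 lower. The median log2 ratio was 0.66 (0.28 without the keratin-rich cells). Pou5f1, which encodes OCT4, had 116, 322 and 585 ppm (lowest, median and highest) in Nanog-high cells, against 2.03, 191 and 543 in Nanog-low cells, a log2 ratio of 0.72 (0.49 to 0.94). That ratio was 0.33 without the keratin-rich cells, below the limit for a call, and 23 Nanog-low cells lay at or above the Nanog-high median. Sox2 had 14.9, 83.9 and 159 in Nanog-high cells, against 0, 47.3 and 153 ppm in Nanog-low cells, a log2 ratio of 0.93 (0.37 to 1.23) and 0.56 without those cells. Fgf4, a growth factor that OCT4 and SOX2 control, had the highest ratio of the list at 1.18 (0.61 to 1.53), with medians of 128 ppm in Nanog-high and 34.3 in Nanog-low cells. Sall1 (0.75, or 0.35 without), the corepressor Trim28 (0.75, or 0.44 without), the DNA demethylase Tet1 (0.70, or 0.23 without), Sall4 (0.63, or 0.37 without) and the NODAL coreceptor Tdgf1 (0.60, or 0.15 without) completed the higher genes. Of the 8, Sox2 and Fgf4 were the ones that stayed above the limit without the keratin-rich cells. Rif1 (0.49), Zfp281 (0.30), Utf1 (0.22) and the RNA-binding protein gene Lin28a (-0.21) were not called. Reads of Nanog and Pou5f1 can be shared with processed pseudogenes, and the sources used here do not say how such reads were assigned.

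Among genes for proteins known to bind NANOG, those called higher were mostly members of the naive or core lists. Of the 20 genes, 9 were called higher, against 6.33% of all genes, and 0 lower (median 0.45, or 0.25 without). Of the 9, 8 are also members of the naive or core lists. The other, Rcor2, a subunit of LSD1 corepressor complexes, had medians of 134 ppm in Nanog-high and 51.1 in Nanog-low cells and a log2 ratio of 1.03 (0.90 to 1.31). The deacetylases Hdac1 and Hdac2 (0.25 and 0.42), the demethylase Kdm1a (0.26) and the NuRD and chromatin-remodelling genes Mta2 (0.13), Gatad2a (-0.19), Mta1 (-0.38) and Smarca4 (-0.08) were among the 11 not called.

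The genes with the highest and lowest ratios were ranked among those with the same direction in each lane and in both tables and at most 20% of the summed value of both groups in 4 cells. Of the 15 highest, 4 were members of the naive list. Ano1, a calcium-activated chloride channel, stood highest at 4.67 (3.92 to 5.37), with 0, 20.4 and 276 in Nanog-high cells, against 0, 0 and 16.6 ppm in Nanog-low cells. Its ratio was 1.42 for the 129 allele and 4.81 for the CAST allele, and the summed mean in Nanog-low cells was 0.645 ppm. That mean is under the 1 ppm added to each, so the size of the Ano1 log2 ratio depends on this addition: it was 5.78 with 0.1 ppm added, and it was 3.91 with groups of 33.3% of cells and 3.56 with cells chosen by the 129 table. Calcoco2, an autophagy receptor, followed at 2.84 (1.49 to 4.29), and Kit, the receptor of stem cell factor, at 2.75 (2.25 to 3.29). Kit had 15.8, 116 and 446 in Nanog-high cells, against 0, 7.28 and 156 in Nanog-low cells, and 3 Nanog-low cells lay at or above the Nanog-high median. Its means in the 4 bins from low to high Nanog were 19.5, 44.5, 74.0 and 137.1 ppm. Inhbb, a subunit of activin B, was at 2.52 (1.95 to 2.90), the citrate transporter gene Slc13a5 at 2.14 (1.02 to 3.41), and Sfrp1, a secreted WNT antagonist, at 2.05 (1.63 to 2.33). Tdh, the threonine dehydrogenase that mouse embryonic stem cells rely on, had 15.9, 181 and 467 in Nanog-high cells, against 0, 10.3 and 327 ppm in Nanog-low cells and a log2 ratio of 2.00 (1.73 to 2.10). Khdc3 (1.99), the actin nucleator Cobl (1.98), the X-linked exchange factor gene Mcf2 (1.95, CAST table alone) and Lrrc34 (1.92) completed the 15 with Prdm14, Tbx3, Tcl1 and Nr5a2. Without the keratin-rich cells these 15 ratios lay between 1.46 and 4.74.

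**Figure D3:**
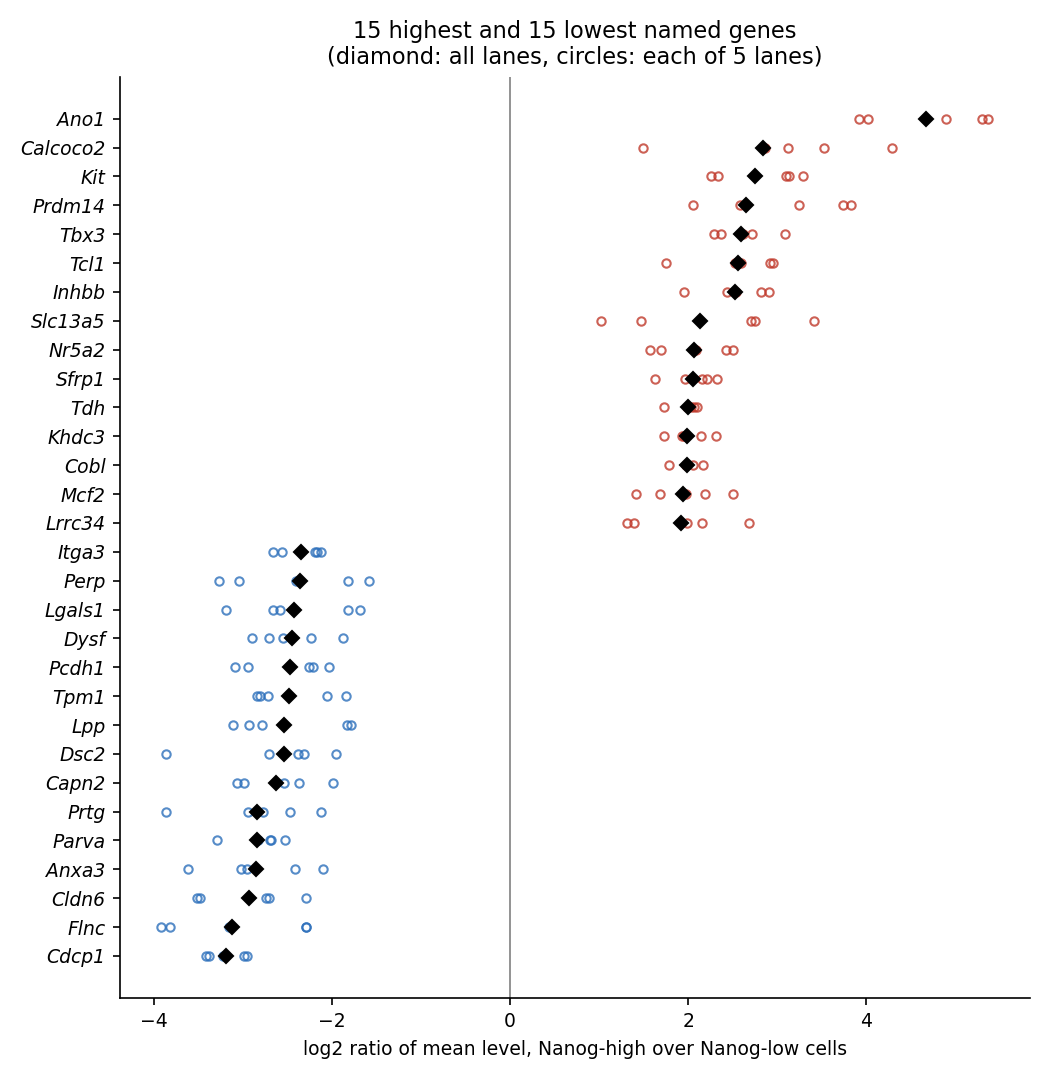
Log2 ratio of mean level, Nanog-high over Nanog-low cells (horizontal axis), for the 15 highest and the 15 lowest genes among those with at most 20% of the summed value in 4 cells; black diamonds are all lanes together and open circles the 5 sequencing lanes. The higher genes run from 1.92 (Lrrc34) to 4.67 (Ano1) and the lower from -3.19 (Cdcp1) to -2.35 (Itga3), and each circle lies on the same side of 0 as its diamond.

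Across all 419 cells, the genes whose level followed Nanog most closely were Ticrr, Kit, Nfatc2ip, Tfcp2l1, Kat6b, Fbrsl1, Prdm14, Calcoco2, Tbx3 and Tet2, with Spearman correlations of 0.726 to 0.634. These describe cells that share library scaling with Nanog and carry no test. Ticrr, a regulator of replication initiation, had 97.2, 417 and 1047 ppm (lowest, median and highest) in Nanog-high cells, against 2.24, 112 and 823 in Nanog-low cells. It lay low in the Nanog-low cells as a group, with 1 at or above the Nanog-high median, and its log2 ratio was 1.75 (1.61 to 1.87). Nfatc2ip, which binds the NFAT factor NFATC2, had medians of 145 ppm in Nanog-high and 39.8 in Nanog-low cells and a ratio of 1.58 (1.39 to 1.75), and the histone acetyltransferase gene Kat6b medians of 439.8 ppm in Nanog-high and 159 in Nanog-low cells and a ratio of 1.29 (0.96 to 1.53). Fbrsl1 was at 1.30 (1.06 to 1.43). Without the keratin-rich cells the 10 correlations were between 0.541 and 0.664.

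Of 9 measured genes within 500 kb of Nanog on chromosome 6, 1 was called higher, against 6.33% of all genes, and 1 lower, against 11.6%, which does not set these neighbours apart. Gdf3, which lies 97.4 kb before Nanog, was the higher one at 0.68 (0.15 to 0.81), or 0.31 without, and Rimklb the lower one at -0.54 (-1.10 to -0.22). The nearest, the glucose transporter gene Slc2a3, 13.2 kb after Nanog, had 207, 664 and 1720.1 in Nanog-high cells, against 8.13, 461 and 3186 ppm in Nanog-low cells and a log2 ratio of 0.20 (-0.23 to 0.51). Dppa3 (Stella), a maternal and germline factor 77.2 kb before Nanog, had 0, 8.74 and 82.0 in Nanog-high cells, against 0, 2.91 and 536 in Nanog-low cells, a ratio of -0.15 (-0.99 to 0.84). Phc1, Mfap5, M6pr, Necap1 and the pseudogene Gm8430 were between -0.08 and 0.38 and were not called.

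Of 22 genes of the formative and primed list 14 passed the filter, 3 were called higher, against 6.33% of all genes, and 2 lower, against 11.6%. The median log2 ratio was -0.21, or -0.41 without, a value that changed sign under other settings given in the closing section. The zinc finger genes Zic2 (1.12) and Zfp462 (0.62) and the ETS factor Etv5 (0.55, or 0.23 without) were higher in Nanog-high cells. Car4, a carbonic anhydrase, was lower at -3.08 (-3.73 to -2.09), with 0, 0 and 50.3 in Nanog-high cells, against 0, 12.8 and 244 ppm in Nanog-low cells, and Lef1, a nuclear partner of beta-catenin, was lower at -2.27 (-3.50 to -1.30), with 31.9% of its summed value in 4 cells. The de novo DNA methyltransferases Dnmt3b and Dnmt3a were at -0.40 (-0.75 to -0.11) and -0.48 (-0.71 to -0.26), negative in each lane but short of the limit, and their cofactor gene Dnmt3l at 0.01 (-0.15 to 0.19). Ncam1 (0.68), Etv4 (-0.06), Lin28b (-0.37), Fzd7 (-0.97) and Cdh2 (-0.92) were not called. The remaining 8, Foxd3, Sox3, Otx2, Hes6, Sall2, Pou3f1, Fgf5 and Sox4, did not pass the filter. Among them the growth factor gene Fgf5 averaged 0.280 ppm in Nanog-high and 3.08 in Nanog-low cells, Otx2 7.42 ppm in Nanog-high and 7.79 in Nanog-low cells and Pou3f1 5.63 ppm in Nanog-high and 19.2 in Nanog-low cells.

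Feedback genes of the FGF and ERK pathway were partly lower in Nanog-high cells. FGF4 signals through ERK to push embryonic stem cells out of the naive state, and the pathway induces its own phosphatases and inhibitors. Of 22 list members 17 passed the filter, 6 were called lower, against 11.6% of all genes, and 1 higher, against 6.33%. Their median log2 ratio was -0.26 (-0.59 without the keratin-rich cells). Dusp6, the ERK phosphatase most often used as a readout, had 0, 16.5 and 104 ppm (lowest, median and highest) in Nanog-high cells, against 0, 41.9 and 553 in Nanog-low cells, a log2 ratio of -1.65 (-2.29 to -1.35). Its ratio was -1.81 without the keratin-rich cells, and its means in the 4 bins from low to high Nanog were 66.5, 46.4, 38.8 and 20.5 ppm. The other phosphatase genes Dusp4 and Dusp5 were lower at -1.28 (-2.10 to -0.59) and -2.16 (-3.21 to -1.20), the receptor gene Fgfr2 at -1.03 (-1.39 to -0.71), the inhibitor gene Spry1 at -0.80 (-1.47 to -0.50) and Fos at -1.59 (-2.99 to -0.68). For Fgfr2 the median cell had 20.8 ppm in Nanog-high and 60.99 in Nanog-low cells. Dusp5 and Fos had 29.3% and 26.8% of their summed value in 4 cells. Spry2 (-0.24), Spry4 (-0.15), Etv4 (-0.06), Il17rd (-0.18), Fgfr1 (-0.23), Spred2 (-0.26), Spred1 (-0.44), Etv1 (0.31) and Myc (0.02) were not called, nor was Egr1 at -0.94 (-2.20 to 0.15). For these uncalled members the ratios without the keratin-rich cells are not given here. Etv5 was the member called higher. Ier3, Spred3, Fosl1, Phlda1 and Dusp14 did not pass the filter.

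Immediate early genes, which respond quickly to growth factors and other stimuli, were mostly lower too. Of 16 genes 12 passed the filter, 8 were called lower, against 11.6% of all genes, and 0 higher. The median was -0.996 (-0.80 without the keratin-rich cells). Klf6 had 0, 23.4 and 86.5 in Nanog-high cells, against 0, 90.6 and 1913 ppm in Nanog-low cells, a log2 ratio of -2.32 (-2.74 to -2.02), and Dusp1 0, 20.4 and 195 in Nanog-high cells, against 0, 65.8 and 1064 in Nanog-low cells, a ratio of -2.03 (-2.22 to -1.68). Jun (-1.67), the mRNA decay factor Zfp36 (-1.59), Fos (-1.59), Junb (-1.05), Btg2 (-0.77, or -0.26 without) and Jund (-0.61, or -0.41 without) were lower too, while Ier2 (0.15), Mcl1 (-0.25), Nr4a1 (-0.36) and Egr1 were not called.

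Of 15 genes of the LIF and STAT3 list 4 were higher, against 6.33% of all genes, and 1 lower, against 11.6%. The list median was 0.18, or 0.014 without, against 0.014 over all genes with all cells. Junb was the lower gene, and besides Tfcp2l1, Klf4 and Sall4, the receptor gene Lifr was higher at 0.57 (0.36 to 0.76), with 0.19 without the keratin-rich cells. Stat3 was at 0.47 (0.17 to 0.69) and Socs3 at 0.28 (-0.02 to 0.56), neither of them called. In the WNT list 10 of 15 passed the filter, 1 was higher, against 6.33% of all genes, and 2 were lower, against 11.6%. The list median was -0.083, or -0.025 without. Tcf7l1, a repressor of pluripotency genes, was higher at 0.70 (0.55 to 0.80), with medians of 67.6 ppm in Nanog-high and 39.3 in Nanog-low cells. Tcf7l2 (-0.65, or -0.19 without) and Lef1 were lower, and Ctnnb1, which encodes beta-catenin, was at -0.05. In the BMP and NODAL list 17 of 20 passed, 1 was higher, against 6.33% of all genes, and 4 were lower, against 11.6%. Tdgf1 was the higher one, and Skil, a SMAD inhibitor and NODAL target, was lower at -1.45 (-1.87 to -1.18). Skil had 0, 74.0 and 246 in Nanog-high cells, against 32.3, 200.4 and 840.2 ppm in Nanog-low cells, and its ratio without the keratin-rich cells was -1.41. Id2 (-1.13), Lefty2 (-1.45, or -0.32 without) and Bmpr1a (-0.59, or -0.42 without) were lower as well, and Nodal was not called at -0.31 (-0.81 to 0.30).

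**Figure D4:**
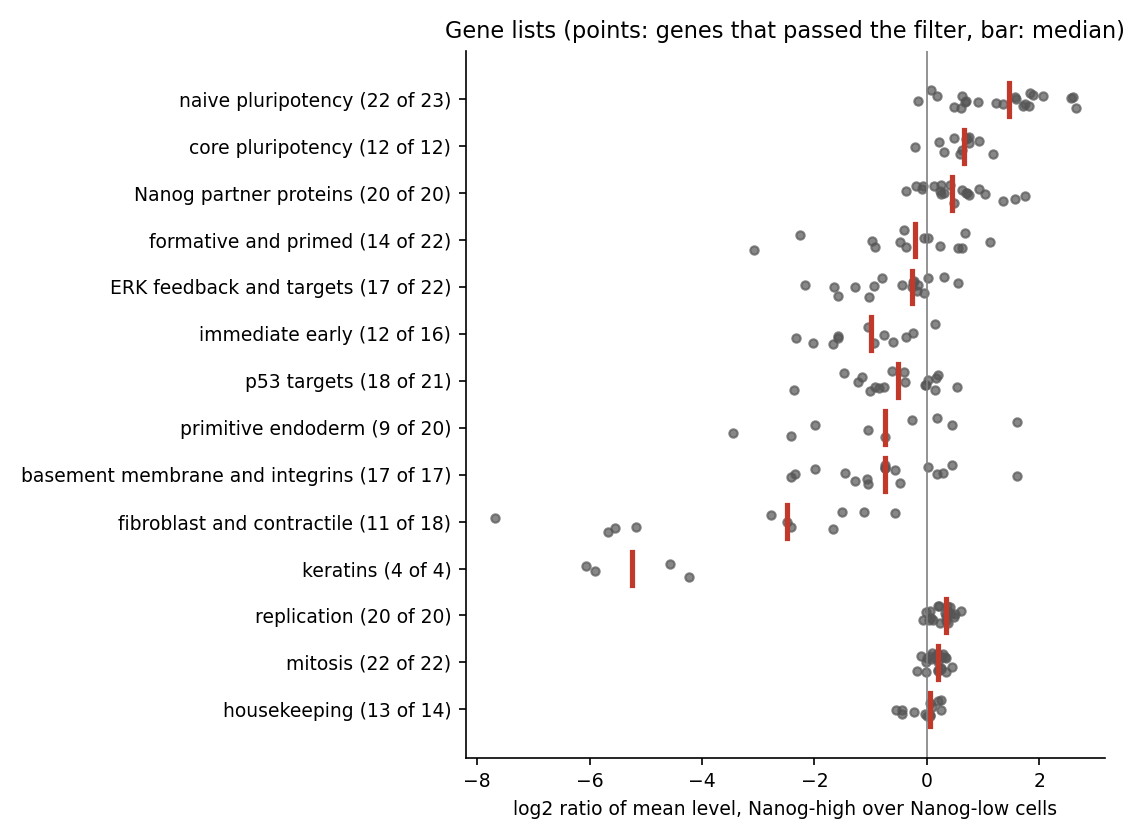
Log2 ratio of mean level, Nanog-high over Nanog-low cells (horizontal axis), for the genes of 14 lists that passed the filter (grey points; the numbers beside each list are those that passed and all members); red bars are list medians. The naive list has its median at 1.46 and the replication, mitosis and housekeeping lists between 0.05 and 0.33, while the fibroblast and contractile list lies at -2.48 and the keratins at -5.24.

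At the other end, the same ranking leaves out genes with more than 20% of the summed value in 4 cells, among them keratins and contractile genes with lower ratios that are described below. Of the genes it keeps, Cdcp1, a transmembrane substrate of SRC kinases, was lowest at -3.19 (-3.42 to -2.95), with 0, 0 and 47.8 in Nanog-high cells, against 0, 19.3 and 271 ppm in Nanog-low cells, and Flnc, an actin cross-linker, at -3.13 (-3.91 to -2.29). Cldn6, a tight junction claudin, had 0, 6.51 and 82.3 in Nanog-high cells, against 0, 74.2 and 469.6 in Nanog-low cells, a ratio of -2.93 (-3.51 to -2.30), and 89 of 105 Nanog-low cells lay at or above the Nanog-high median. Tpm1, a tropomyosin, had 15.6, 62.9 and 265 in Nanog-high cells, against 18.8, 149.9 and 2472 in Nanog-low cells, a ratio of -2.48 (-2.84 to -1.84). The protease gene Capn2 (-2.63 (-3.07 to -1.99)) and the laminin receptor subunit Itga3 (-2.35 (-2.66 to -2.12)) had medians of 11.7 ppm in Nanog-high and 69.8 in Nanog-low cells for Capn2, and 56.8 ppm in Nanog-high and 265 in Nanog-low cells for Itga3. Anxa3 (-2.85), the focal adhesion gene Parva (-2.85), Prtg (-2.84), the desmosomal cadherin Dsc2 (-2.54), Lpp (-2.53), Pcdh1 (-2.47), the membrane repair gene Dysf (-2.45), the galectin Lgals1 (-2.42) and Perp (-2.36) completed the 15 lowest. Without the keratin-rich cells these 15 ratios lay between -2.09 and -1.03. Over all 1020 lower genes, 519 stayed at or below -0.5 without those cells and 34 turned positive, whereas 296 of the 556 higher genes stayed at or above 0.5 and 0 turned negative.

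The keratins and contractile genes depended on few cells. The median of the 4 keratins was -5.24, or -1.46 without. Krt8 and Krt18 were at -6.07 (-6.77 to -5.34) and -5.91 (-6.61 to -4.76), and at -1.37 and -1.21 without the keratin-rich cells, which were themselves chosen by these genes. Krt7 and Krt19 were at -4.24 (-4.62 to -2.99) and -4.57 (-5.44 to -3.57). In the fibroblast and contractile list 11 of 18 passed the filter and 10 were called lower, against 11.6% of all genes. The list median was -2.48 (-0.81 without those cells). The smooth muscle actin gene Acta2 had the lowest ratio of the list, -7.69 (-8.89 to -5.37), with 75.9% of its summed value in 4 cells, a median of 0 and a highest value of 7.73 ppm in Nanog-high cells, and a median of 1.03 and a highest value of 9475 ppm in Nanog-low cells. Tagln, an actin-binding protein of smooth muscle, was at -5.55 (-6.54 to -3.99) and -3.43 without those cells, and Thbs1 at -5.17 (-5.94 to -3.80) and -2.72. Over the whole list, the summed level was 63.5, 327 and 880.1 ppm in Nanog-high cells (lowest, median and highest), against 130.4, 708 and 30175 in Nanog-low cells. Collagen Col1a1 had a median of 0 in both groups and Col3a1 did not pass the filter.

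**Figure D5:**
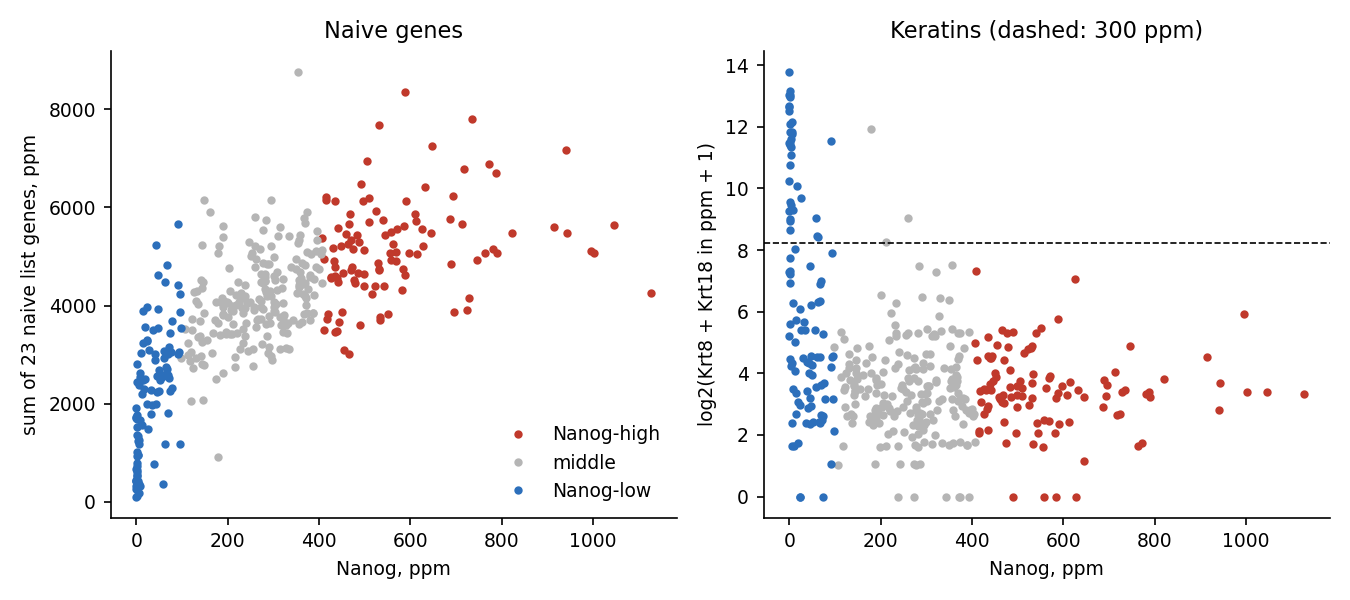
Left, the sum of the 23 naive list genes in ppm, and right, log2 of Krt8 plus Krt18 in ppm plus 1, both against Nanog in ppm, with 1 point per cell (red Nanog-high, grey middle, blue Nanog-low). Cells above the dashed line of 300 ppm on the right number 0 in the Nanog-high group and 34 in the Nanog-low group.

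For cell types to which embryonic stem cells could differentiate, the defining regulators named here mostly had low averages. Other members of these lists were called in part. For primitive endoderm, 9 of 20 list genes passed the filter, and those were mainly laminin, collagen and other secreted or surface genes. The defining regulators stayed at or under 2.96 ppm on average in both groups: Gata6 averaged 0.369 ppm in Nanog-high and 0.812 in Nanog-low cells, Gata4 1.22 ppm in Nanog-high and 2.35 in Nanog-low cells, Sox17 0.202 ppm in Nanog-high and 0.0949 in Nanog-low cells, Foxa2 0.185 ppm in Nanog-high and 0.219 in Nanog-low cells and Pdgfra 1.60 ppm in Nanog-high and 2.96 in Nanog-low cells. Lama1 was called higher, and Lrp2, Col4a1, Col4a2, Sparc and Lamb1 lower. The list median was -0.74 (-0.28 without the keratin-rich cells), and its summed level was 569, 1367 and 2639.7 ppm in Nanog-high cells (lowest, median and highest), against 360.03, 1476 and 6829.7 in Nanog-low cells. Lrp2, an endocytic receptor of the list, had 0, 19.3 and 287 in Nanog-high cells, against 0, 161.2 and 4329.6 in Nanog-low cells, a log2 ratio of -3.44 (-4.29 to -2.31) and -2.37 without the keratin-rich cells. For trophectoderm 7 of 16 passed, 4 of them keratins, and the summed level was 43.3, 155 and 543 ppm in Nanog-high cells, against 27.4, 324 and 15966 in Nanog-low cells. Its 5 called genes were lower, against 11.6% of all genes: the keratins and Id2. The median log2 ratio of the list was -4.24, or -1.21 without. Cdx2, a defining regulator, averaged 0.0667 ppm in Nanog-high and 2.46 in Nanog-low cells, Elf5 0.621 ppm in Nanog-high and 2.55 in Nanog-low cells and Hand1 0.625 ppm in Nanog-high and 17.4 in Nanog-low cells. None of 12 mesendoderm genes passed, with T (Brachyury) at 2.29 ppm in Nanog-high and 2.08 in Nanog-low cells and Mixl1 at 1.70 ppm in Nanog-high and 1.61 in Nanog-low cells. Of 11 neural genes 3 passed, and 1 of them was lower, against 11.6% of all genes. The lower one was Nes, an intermediate filament gene, at -2.61 (-3.20 to -2.27), while Sox1 averaged 2.99 ppm in Nanog-high and 4.99 in Nanog-low cells. Of the 13 genes of the 2-cell-embryo list 0 passed, and the median summed level was 0 in both groups. The part of these few cells in the ratios of other genes was not tested beyond leaving out the keratin-rich cells and the cell richest in 2-cell-embryo RNA.

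Basement membrane and integrin genes split by subunit. The cells grew on laminin and make laminin themselves. Of 17 genes, all of which passed the filter, 10 were lower, against 11.6% of all genes, and 1 was higher, against 6.33%. The higher one was Lama1, the laminin alpha chain of early embryonic basement membranes, with 0, 264 and 1024 ppm (lowest, median and highest) in Nanog-high cells, against 0, 21.5 and 796 in Nanog-low cells. Its log2 ratio was 1.60 (1.22 to 2.18). In contrast Lama5, another alpha chain, was lower at -0.74 (-0.92 to -0.60), with medians of 488 ppm in Nanog-high and 719 in Nanog-low cells. Lamb1 was lower at -0.74 (-0.995 to -0.61), or -0.28 without, and Lamc1 was not called at 0.18 (0.04 to 0.34). The integrin genes Itga3, Itga5 (-1.46), Itgb1 (-1.27) and Itgav (-1.07, or -0.35 without), the perlecan gene Hspg2 (-0.75, or -0.15 without), Sparc (-1.05, or -0.29 without) and the collagen genes Col4a1 (-1.99) and Col4a2 (-2.42) were lower. Without the keratin-rich cells the list median was -0.28 in place of -0.74, and Col4a1 was at -0.42. Fibronectin (Fn1) had medians of 724 ppm in Nanog-high and 339 in Nanog-low cells and means of 762 ppm in Nanog-high and 754 in Nanog-low cells, a log2 ratio of 0.02 (-0.72 to 0.57) that was 0.57 without those cells.

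Among p53 targets, 9 of 18 measured genes were lower in Nanog-high cells, against 11.6% of all genes, and 1 was higher, against 6.33%. The list median was -0.51 (-0.30 without the keratin-rich cells). Trp53 itself, which the list includes, was the higher one at 0.54 (0.42 to 0.64), or 0.29 without. Pmaip1 (Noxa), a pro-apoptotic gene, was lower at -1.22 (-1.69 to -0.50) with medians of 11.6 ppm in Nanog-high and 34.5 in Nanog-low cells, the cell cycle inhibitor gene Cdkn1a at -1.01 (-1.68 to -0.56), or -0.498 without, Mdm2, which encodes the ubiquitin ligase of p53, at -0.86 (-1.21 to -0.56), Ccng1 at -0.93 (-1.36 to -0.59), or -0.40 without, and Plk2 at -1.47 (-2.52 to -0.53). Bax (-0.02), Aen (0.02) and Sesn2 (-0.02) were not called.

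None of 22 mitosis genes was called, against 6.33% of all genes called higher and 11.6% lower (median 0.19, or 0.09 without). Of 20 replication genes 1 was called higher, against 6.33% of all genes, and 0 lower: Ung, at 0.61 (0.48 to 0.73), or 0.40 without. The list median was 0.33, or 0.17 without, with lane medians of 0.22 to 0.42. Ratios were above 0 in 18 of the 20 and below 0 in 2. Means increased over all 4 bins in 10 of the 20, against 16.6% of all genes, and decreased in 0. Of 15 measured G1 cyclins and kinases 2 were higher, against 6.33% of all genes, and 2 were lower, against 11.6%. The list median was 0.017, or -0.083 without. Cdk2 (0.62 (0.50 to 0.77)) and Ccnd3 (0.60 (0.32 to 0.99)) were higher. The retinoblastoma gene Rb1 (-1.04 (-1.20 to -0.62)) and Cdkn1a were lower, while Ccne1 was at 0.15 and Ccnd1 at 0.01. None of 8 measured genes of the Myc family was called, against 6.33% of all genes called higher and 11.6% lower.

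Of 21 measured Polycomb genes 3 were called higher, against 6.33% of all genes, and 3 lower, against 11.6%. Epop (1.004 (0.81 to 1.20)), Mtf2 (0.93 (0.85 to 1.13)) and Aebp2 (0.82 (0.46 to 1.32)), accessory subunits of Polycomb repressive complex 2, were higher, whereas its core genes Ezh2 (0.37), Eed (0.44) and Suz12 (0.39) were below the limit. Mtf2 had 138.02, 289.1 and 886 in Nanog-high cells, against 24.4, 151.8 and 383.7 ppm in Nanog-low cells. Pcgf5 (-1.18), Phc2 (-1.05) and Pcgf3 (-0.52, or -0.27 without), of Polycomb repressive complex 1, were lower. In the DNA methylation list 4 of 13 were higher, against 6.33% of all genes, and the list median was 0.012, or -0.041 without. The 4 were Tet2, Tet1, Zfp57, which protects imprints (1.01 (0.73 to 1.32)), and Uhrf1, the partner of the maintenance methyltransferase (0.50 (0.34 to 0.65), or 0.33 without). Dnmt1 was at 0.05.

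Of 18 glycolysis genes 1 was higher, against 6.33% of all genes, and 3 were lower, against 11.6%. Pfkp was higher (0.56 (0.35 to 0.79), or 0.31 without), and the glucose transporter Slc2a1 (-1.22 (-1.58 to -0.75)), the lactate transporter Slc16a3 (-1.43 (-2.33 to -0.61)) and Hk1 (-0.54 (-0.78 to -0.05), or 0.08 without) were lower. Slc2a1 had 115, 353 and 1645 in Nanog-high cells, against 111, 678 and 5485 ppm in Nanog-low cells. None of 18 cholesterol synthesis genes was called, against 6.33% of all genes called higher and 11.6% lower. Of 14 measured genes of the amino acid stress response and serine synthesis 1 was higher, against 6.33% of all genes, and 0 lower. The higher one was Pck2 at 0.73 (0.46 to 1.26), or 0.46 without. Of 14 measured heat shock genes 2 were lower, against 11.6% of all genes, Bag3 (-1.003) and Hspa1b (-0.86). Of 12 measured noncoding RNAs of that list 2 were higher, against 6.33% of all genes, and 1 was lower, against 11.6%. Snhg3 (0.55, or 0.41 without) and Snhg12 (0.55, or 0.30 without) were higher. The imprinted H19 was lower at -3.21 (-4.44 to -1.71), with 0, 10.1 and 3143 in Nanog-high cells, against 0, 43.5 and 14137 ppm in Nanog-low cells.

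Nanog-low cells were not all alike. The 5 naive factors Esrrb, Klf4, Tbx3, Tfcp2l1 and Zfp42 were read in each cell against their own lowest 25% over the 419 cells. All 5 were in that range in 0 of 105 Nanog-high cells (up to 2.86%) and in 37 of 105 Nanog-low cells (35.2%, exact interval 26.2% to 45.2%). None of the 5 was there in 84 Nanog-high cells (80.0%) and in 6 Nanog-low cells (5.71%). The other 62 Nanog-low cells had 1 to 4 of the factors in it. Of the 37 Nanog-low cells with all 5, 22 were keratin-rich. Taken singly, the share of cells in the lowest 25% was 5.71% of Nanog-high and 66.7% of Nanog-low cells for Esrrb, 6.67% of Nanog-high and 58.1% of Nanog-low cells for Tbx3, and 8.57% of Nanog-high and 69.5% of Nanog-low cells for Zfp42. The summed naive list ran from 3017 to 8349.9 ppm in Nanog-high cells and from 109.8 to 5661 in Nanog-low cells. It followed Nanog with a Spearman correlation of 0.760 over all cells, 0.700 over the 382 cells that were not keratin-rich, 0.315 within Nanog-high and 0.686 within Nanog-low cells, as a description of values that share each cell's scaling.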

How the data were processed

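Cells were read by RamDA-seq and the authors deposited a table for each allele (129 and CAST) with 117762 Ensembl transcripts as rows and a column per cell. Per the submitters' processing notes Bowtie 1.1.2 and the build mm10 were used, without their roles; how reads were assigned to alleles, and with which annotation, is not stated in the sources used here. These deposited values were taken as a score: whole numbers that the authors had scaled to nearly common totals, so no count model was used and the depth in reads is unknown. Chromosomes X, Y and M hold values in the CAST table alone. Rows were matched to GENCODE vM21 (116824 matched; the rest hold 0.360% of all values). No value column was left unmatched.

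Values were summed per gene over both tables and divided by the cell total, in parts per 1000000 (ppm). Cells at or above the 75th percentile of Nanog were compared with those at or below the 25th. Ratios are log2 of group means plus 1 ppm. Levels are not divided by transcript length, so levels of different genes are not compared. Intervals for shares of cells are exact binomial (Clopper-Pearson, 95%) and, like the limit of 3 cells for a count of 0, cover counting error only.

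The design had foreseen no test, because the labels name 1 culture at most. Members and the 30 gene lists were chosen with earlier results of these data known. Named genes were, among genes other than predicted symbols and pseudogenes with the same direction in 5 lanes and in both tables (autosomes) and at most 20% of the summed value in 4 cells, the 15 highest and 15 lowest; all members of the naive, core, formative and ERK lists; up to 4 members of other lists; the 10 highest Spearman correlations with Nanog; and genes within 500 kb of it. Further list members were named after their values were seen, to account for called genes. Some list members are not reported here. Leaving out keratin-rich cells, or the cell richest in 2-cell-embryo RNA, was added after seeing the data. Doublets were not called, and the main results use all cells of both groups. Promoters come from RefSeq (GRCm38.p6). Python 3.11.15, numpy 2.4.6, pandas 2.3.3, scipy 1.17.1 and matplotlib 3.10.9 were used.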

Additional observations from a re-analysis of the deposited data

How the results depend on the processing

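Over 68 named genes and 19 other settings no log2 ratio changed sign among the called genes. For some settings this was largely fixed beforehand. A mean of at least 1 or 50 ppm decides which genes count and leaves a gene's ratio as it was. Leaving out a lane could hardly turn a sign, since a call required the same sign in each lane. All 68 ratios were classed as the same in each of these settings. Of 1292 values 1104 were classed as the same as the reported one, these included, and 188 as moved. What separated same from moved is not stated here. The range over lanes was not the limit: Calcoco2 with 10% of cells, at 4.25, was classed as moved though inside its range. The count of higher genes (556) was 358 with 33.3% of cells a group, 1378 with 10%, 1018 with mean log2 values, 915 and 252 with a mean of at least 1 and 50 ppm, and 347 without keratin-rich cells. The count of lower genes (1020) was 1532 with 10%, 2137 and 269 with a mean of at least 1 and 50, and 513 without keratin-rich cells. The naive median (1.46) was 1.099 with 33.3%, 2.85 with 10%, 2.18 with mean log2, 1.18 with cells chosen by the 129 table and 1.07 without keratin-rich cells. The formative median (-0.21) turned to 0.022 with 1 row per gene, 0.10 with 10%, 0.24 with mean log2 and 0.012 at a mean of at least 50, and was -0.37 at a mean of at least 1 and -0.41 without keratin-rich cells. The ERK median (-0.26) was -0.44 with 1 row per gene, -0.37 without ribosomal RNA genes and mitochondrial rows in the total, -0.085 with mean log2, -0.87 at a mean of at least 1 and -0.59 without keratin-rich cells. The primitive endoderm median (-0.74) was -0.93 with 1 row per gene, -0.47 without ribosomal RNA genes and mitochondrial rows in the total, -0.52 with 33.3%, -1.28 with 10%, -0.55 with mean log2 and -0.28 without keratin-rich cells. The cause of these shifts was not tested. Leaving out each lane in turn gave 560 to 592 higher and 991 to 1092 lower genes, and medians of 1.40 to 1.54 (naive), -0.27 to -0.10 (formative), -0.35 to -0.26 (ERK) and -0.77 to -0.67 (primitive endoderm). Values limited at the 99th percentile, groups of 25% taken within each lane, another pseudocount, the CAST table as the choice, and leaving out the cell richest in 2-cell-embryo RNA gave 532 to 591 higher and 941 to 1085 lower genes, and medians of 1.41 to 1.47 (naive), -0.22 to -0.19 (formative), -0.33 to -0.25 (ERK) and -0.78 to -0.64 (primitive endoderm). No paired analysis was possible because both groups are cells of 1 sample and share no replicate numbers; ratios within each lane are given with the results. Depth in reads is unknown, so values near 0 may reflect missed transcripts.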

Other observations

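Means increased over the 4 bins of 25% of cells by Nanog, from low to high, in 1457 of 8781 genes (16.6%) and decreased in 1203 (13.7%). Median log2 ratios, Nanog-high over Nanog-low, lay between -0.03 and 0.09 on the autosomes, with the highest on chromosome 17, and at 0.04 on the X chromosome over 340 genes of the CAST table. On chromosome Y, 3 genes passed the filter, with a median of 0.03, though the line is described as female. The source of these chromosome Y values was not tested.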
